A study of Mus musculus with 22 samples.

Results

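The 36 genes described here encode proteins that copy and divide the genome: the licensing factors and helicase subunits that load onto replication origins, the clamp and nucleotide enzymes of the replication fork, the cyclins with their kinase Cdk1, the transcription factors E2f1 and Foxm1, and the kinases, checkpoint proteins, ubiquitin ligase factors, motors and centromere proteins of mitosis. They were taken by gene symbol from the deposited table of 46078 genes, all 36 were found, and all 36 had enough reads to be tested in each comparison. RNA was measured in whole segments of distal colon from 22 mice, each library coming from 1 mouse. The 8 C57BL/6 mice were wild type controls aged 14 weeks (4 males and 4 females). The 7 Winnie mice, labelled inflamed, were aged 14 weeks as well (3 males and 4 females) and carry a missense mutation of Muc2, the gene for the main secreted mucin of colonic goblet cells, which leads to spontaneous chronic colitis. The 7 Winnie-Prolapse mice, Winnie mice labelled prolapse and severely inflamed, were aged 18 weeks (4 males and 3 females), so prolapse and age cannot be told apart. The series asked which pathways were up- or downregulated in Winnie and Winnie-Prolapse mice, and the comparisons below put that question to the cell cycle.

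In the healthy colon, dividing cells are found mainly in the lower crypt, where stem cells and their transit-amplifying progeny replace the surface epithelium, and activated lymphocytes and other stromal cells can divide too. Genes of G1/S and S phase (14 of the 36, among them Pcna, Rrm2 and the Mcm genes) are transcribed under E2F factors as a cell commits to replication. Genes of G2 and mitosis (22 of the 36, among them Mki67, Plk1 and Ccnb1) follow later, under Foxm1, B-Myb and the MuvB core. Because whole tissue was measured, fewer cells of a type and less RNA per cell cannot be told apart, and neither can more dividing cells and more cell cycle RNA in each of them.

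Library totals were between 24817527 and 36344372 counts. Levels are given as TMM-scaled CPM, counts relative to an effective library size set by the trimmed mean of M-values. Epithelial markers were present in every library, with 11 genes summing to 14117 ± 1108 CPM in C57BL/6 (SD, n = 8), 17535 ± 3115 CPM in Winnie (n = 7) and 15785 ± 3984 CPM in Winnie-Prolapse (n = 7). Of these 5 rose in Winnie, and 1 rose and 1 fell in Winnie-Prolapse. The 10 smooth muscle markers all fell, with a median log2 fold change of -0.88 in Winnie and -1.77 in Winnie-Prolapse against C57BL/6, while 9 of 10 T cell and 7 of 8 plasma cell markers rose in both (adjusted p under 0.05 in edgeR's quasi-likelihood test). Of macrophage and monocyte markers 5 of 8 rose in Winnie and 8 of 8 in Winnie-Prolapse, with sums of 77.2 to 166 CPM in C57BL/6, 112 to 327 CPM in Winnie and 226 to 506 CPM in Winnie-Prolapse. Of neutrophil markers 3 of 4 tested rose in Winnie and 6 of 7 tested in Winnie-Prolapse, and 6 of the 8 on the list, S100a8 and S100a9 among them, were under 1 CPM in every C57BL/6 library. At that adjusted p, 13.8% of all tested genes were higher and 11.9% lower in Winnie, and 26.5% and 26% in Winnie-Prolapse. Squamous keratinocyte markers, which colon epithelium should lack, summed to between 4.11 and 46 CPM in C57BL/6, to between 6.38 and 115 CPM in Winnie and to between 109 and 3843 CPM in Winnie-Prolapse. In 1 library, Winnie-Prolapse replicate 6, milk protein genes took 18% of all counts. The part of these shifts in the results below was not tested beyond the fits named with them.

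In Winnie, 34 of the 36 cell cycle genes were upregulated against C57BL/6 at an adjusted p under 0.05, where 13.8% of all 17289 tested genes were higher. The median log2 fold change of the 36 genes was 0.99, against -0.01 over all tested genes, and all 36 estimates were positive, from 0.37 (Pcna) to 1.37 (Foxm1 and Plk1). The genes that missed the threshold were Cdc6, an origin licensing factor (log2 fold change 0.55 ± 0.21 SE, adjusted p = 0.0677 in edgeR), and E2f1 (0.38 ± 0.20, adjusted p = 0.161). In males alone 36 of the 36 were upregulated (16.2% of tested genes), with a median of 1.11. In females alone none passed in edgeR (0.00579% of tested genes did), with a median of 0.93, 35 positive estimates and 24 at an unadjusted p under 0.05. None of the 36 passed the stricter rule of the study, an adjusted p under 0.001 with a fold change of at least 1.5, which 0.0868% of tested genes passed upwards in edgeR's quasi-likelihood test, although 35 had an unadjusted p under 0.05. That count of 0 depended on the test and on 1 library: DESeq2 called 20 (2.63% of the genes to which it gave a p-value) and edgeR's likelihood ratio test 20 (3.67%), limma-voom called none of the 36 and no gene at all, and 15 were called without Winnie replicate 5 (2.5% of tested genes).

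In Winnie-Prolapse, all 36 genes were upregulated against the same C57BL/6 mice at an adjusted p under 0.05, where 26.5% of 17397 tested genes were higher. By the stricter rule 21 of the 36 were called, against 9.84% of tested genes. The median log2 fold change was 1.12, against -0.01 over all tested genes, and estimates ran from 0.41 (Tyms) to 1.78 (Rrm2). The called number lay between 14 and 32 when single libraries were left out, with 32 reached without Winnie-Prolapse replicate 3 and 14 without C57BL/6 replicate 1 or 2 or Winnie-Prolapse replicate 2, 5 or 6. It was 5 with levels set against epithelial markers, and 0 in males alone (1.43% of tested genes passed) and 0 in females alone (1.28%), where fewer mice were compared. All 36 estimates were positive in each sex, with medians of 0.91 in males and 1.42 in females. At an adjusted p under 0.05, 22 of the 36 were higher in males (15.3% of tested genes) and 31 in females (16.8%). The 13 genes called in each of the 15 fits that left out 1 library were Mcm3, Rrm1, Rrm2, Ccna2, Ccnb1, Cdk1, Foxm1, Plk1, Aurka, Birc5, Ube2c, Tpx2 and Prc1.

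Between Winnie-Prolapse and Winnie, none of the 36 genes differed at an adjusted p under 0.05, where 5.01% of 17041 tested genes were higher, and none was called by the stricter rule, which 0% of tested genes passed. The 36 log2 differences had a median of 0.23, against 0.01 over all tested genes, and 33 of them were positive. The median turned to -0.18 in males alone, with 7 of 36 positive, and to -0.13 among libraries with the squamous keratin Krt5 under 10 CPM, with 12 of 36 positive, while in females alone it was 0.60. The Krt5 limit left Winnie-Prolapse replicates 1 and 3 alone, and replicate 3 was the lowest of its group for 32 of the 36 genes. With no library left out, Rrm2 had the widest gap (0.66 ± 0.29 SE) and was the 1 gene of the 36 with an unadjusted p under 0.05 (adjusted p = 0.159 in edgeR). Mki67, the gene of the Ki-67 proliferation antigen, differed by 0.03 ± 0.31, an error wide enough to leave a difference of either sign. By the stricter rule DESeq2 called 0 of the 36 as well, where 1.65% of the genes with a p-value passed, and limma-voom called no gene at all. Because both Winnie groups were set against the same 8 C57BL/6 mice, the fold changes of the first 2 comparisons share those controls and are given side by side only.

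**Figure D1:**
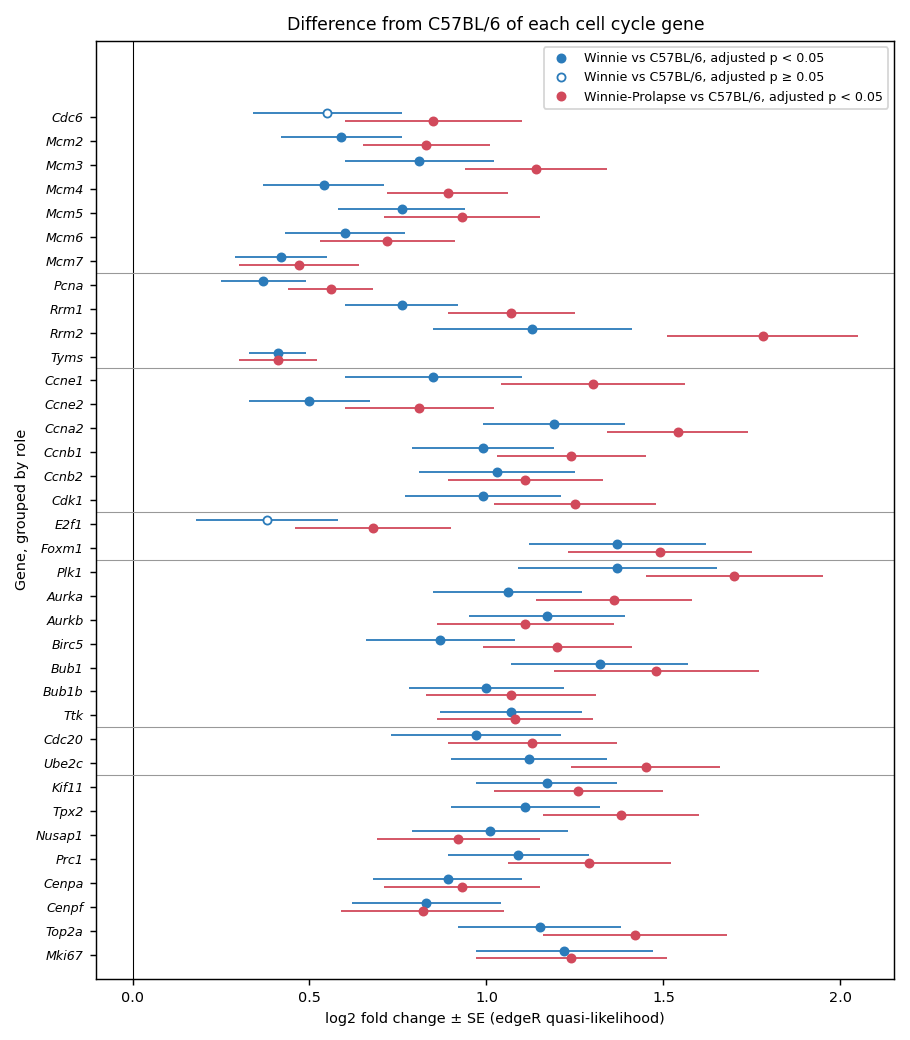
log2 fold change (x axis) of each of the 36 genes (y axis, grouped by role) in Winnie (blue) and Winnie-Prolapse (red) against C57BL/6, with the SE as a bar and open points where the adjusted p was 0.05 or above. All estimates lie right of 0, from 0.37 to 1.37 in Winnie and from 0.41 to 1.78 in Winnie-Prolapse.

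The 14 G1/S and S phase genes had a median log2 fold change of 0.57 in Winnie, with 12 of 14 upregulated at an adjusted p under 0.05 (only Rrm2 with levels set against epithelial markers), and of 0.84 in Winnie-Prolapse, with 14 of 14 upregulated and 5 called by the stricter rule. The 22 genes of G2 and mitosis had a median of 1.08 in Winnie and 1.24 in Winnie-Prolapse, all 22 were upregulated in both, and 16 were called in Winnie-Prolapse. Of all tested genes, 13.8% were higher in Winnie (4.24% with epithelial scaling) and 26.5% in Winnie-Prolapse at an adjusted p under 0.05. By the stricter rule 9.84% were called higher in Winnie-Prolapse. The same shares stand beside the role classes below. The classes overlapped: Rrm2, of S phase, had the largest estimate of all in Winnie-Prolapse (1.78), and Cenpf, of mitosis, had 0.82. Between the Winnie groups the medians were 0.31 for G1/S and S phase and 0.17 for G2 and mitosis. No test was made of the difference between the phase classes, whose genes share libraries. In C57BL/6 the median coefficient of variation between mice was 15.8% for G1/S and S phase genes and 28.2% for G2 and mitosis genes. The ranges overlapped, at 6.64 to 38.7% and 22.2 to 36.6%, and the variation was not tested. In Winnie the medians were 30.8% and 30.4%, and in Winnie-Prolapse 32.2% and 34.5%.

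Promoter sequence is shown for the motifs through which the factors of each phase class are known to act. RefSeq promoters (GRCm38.p6, 250 bases before to 50 after the annotated start) were found for 30 of the 36 genes, giving 32 promoters since Mcm7 and Prc1 have more than 1 start. Mcm4, Ccna2, Ccne2, Foxm1, Aurkb and Tpx2 had none in the table used here. Motifs of 3 kinds were searched on both strands: TTTGAA, the cell cycle genes homology region (CHR) bound by MuvB complexes; CCAAT, bound by NF-Y; and the E2F-type words TTCCCGC or TTGGCGC or TTGCCGC or TTCGCGC, matches of which can overlap each other. TTTGAA was present in 15 of 19 promoters of G2 and mitosis genes (78.9%), in 1 of 13 of G1/S and S phase genes (7.69%, Mcm2) and in 17.9% of all 32851 promoters. CCAAT was present in 17 of 19 (89.5%), 9 of 13 (69.2%) and 37.4%. An E2F-type word was present in 3 of 19 (15.8%), 8 of 13 (61.5%) and 9.57%. A match is a description of letters, and no match says only that these letters were not in the window. Below are the 250 bases before the start, 5′ to 3′ along the gene, with matches to any of the motifs in capitals, for the 3 genes of each class that had a match and the highest mean level over all libraries, among the 18 genes whose values by library are given. The G1/S and S phase genes are Pcna (minus strand, chr2:132253181-132253430), Mcm6 (minus strand, chr1:128359706-128359955) and 1 of the starts of Mcm7 (minus strand, chr5:138171884-138172133).
Pcna: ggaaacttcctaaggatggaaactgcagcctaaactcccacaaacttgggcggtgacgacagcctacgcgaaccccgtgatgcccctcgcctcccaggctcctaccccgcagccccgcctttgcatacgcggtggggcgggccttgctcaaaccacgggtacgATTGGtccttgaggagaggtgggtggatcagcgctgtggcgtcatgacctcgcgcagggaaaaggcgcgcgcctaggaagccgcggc
Mcm6: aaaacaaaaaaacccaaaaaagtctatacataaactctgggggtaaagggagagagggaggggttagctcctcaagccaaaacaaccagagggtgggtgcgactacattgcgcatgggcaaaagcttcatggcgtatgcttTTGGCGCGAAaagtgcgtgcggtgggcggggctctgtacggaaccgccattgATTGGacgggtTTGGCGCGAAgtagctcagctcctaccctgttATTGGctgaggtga
Mcm7: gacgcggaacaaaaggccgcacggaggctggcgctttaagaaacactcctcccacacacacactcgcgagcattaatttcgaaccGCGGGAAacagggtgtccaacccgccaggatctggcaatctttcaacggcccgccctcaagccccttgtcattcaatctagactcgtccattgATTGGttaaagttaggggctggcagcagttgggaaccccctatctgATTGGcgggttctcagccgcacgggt

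The stretch of Mcm6 holds a pair of E2F-type sites, each read on both strands within the run TTGGCGCGAA, whose first bases lie 109 and 46 bases before the start, with CCAAT boxes in reverse (ATTGG) at 57 and 14. Mcm7 has a reverse E2F-type word at 165 and reverse CCAAT boxes at 72 and 26, and Pcna a single reverse CCAAT box at 87. The genes of mitosis are Mki67 (minus strand, chr7:135716380-135716629), Top2a (minus strand, chr11:99024190-99024439) and Ube2c (plus strand, chr2:164769679-164769928).
Mki67: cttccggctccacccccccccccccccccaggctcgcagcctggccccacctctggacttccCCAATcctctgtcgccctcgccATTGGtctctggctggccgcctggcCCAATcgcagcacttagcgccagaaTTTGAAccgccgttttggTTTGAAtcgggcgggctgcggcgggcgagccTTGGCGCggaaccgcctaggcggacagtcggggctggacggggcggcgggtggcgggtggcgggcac
Top2a: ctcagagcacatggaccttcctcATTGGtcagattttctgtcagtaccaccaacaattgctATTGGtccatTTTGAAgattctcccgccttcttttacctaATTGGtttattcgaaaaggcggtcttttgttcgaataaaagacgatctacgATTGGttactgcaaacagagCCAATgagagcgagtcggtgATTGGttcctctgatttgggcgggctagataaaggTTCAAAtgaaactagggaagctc
Ube2c: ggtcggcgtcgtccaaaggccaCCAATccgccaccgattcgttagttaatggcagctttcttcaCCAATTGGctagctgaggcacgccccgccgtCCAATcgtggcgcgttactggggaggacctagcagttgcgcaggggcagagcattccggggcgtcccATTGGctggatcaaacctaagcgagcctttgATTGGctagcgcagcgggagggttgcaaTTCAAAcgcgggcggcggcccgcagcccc

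Each of these 3 promoters holds TTTGAA or its reverse TTCAAA along with several CCAAT boxes: at 116 and 98 bases before the start in Mki67, at 179 and 23 in Top2a and at 29 in Ube2c. CCAAT boxes numbered 3 in Mki67, at 188, 166 and 141. Mki67 also carries an E2F-type word at 67. A promoter with both TTTGAA and CCAAT was found for 15 of 19 G2 and mitosis promoters (78.9%), 1 of 13 G1/S and S phase promoters and 6.95% of all promoters.

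Origin licensing and the replicative helicase comprised 7 genes, Cdc6, which loads the helicase, and Mcm2 to Mcm7, its ring subunits. In Winnie 6 of the 7 were upregulated at an adjusted p under 0.05, with a median log2 fold change of 0.59, and in Winnie-Prolapse all 7 were, with a median of 0.85 and 2 called by the stricter rule (Mcm3 and Mcm4). Mcm6, the most abundant of the class, had a lowest, median and highest value of 22.6, 30.2 and 37.1 CPM in C57BL/6, 25.8, 46.8 and 60.8 CPM in Winnie, and 22.9, 56.8 and 70.3 CPM in Winnie-Prolapse. Its groups overlapped through the low end of both Winnie groups, and its log2 fold change was 0.60 ± 0.17 SE in Winnie (adjusted p = 0.0192 in edgeR) and 0.72 ± 0.19 in Winnie-Prolapse (adjusted p = 0.00573). Mcm3 had the largest change of the class in Winnie-Prolapse. It ran from 11.9 through 15.1 to 22.8 CPM in C57BL/6, from 12.1 through 27.3 to 39.6 CPM in Winnie and from 17.2 through 38.2 to 46.8 CPM in Winnie-Prolapse, and its log2 fold changes were 0.81 ± 0.21 (adjusted p = 0.0136) and 1.14 ± 0.20 (adjusted p = 0.000298). Mcm7 had the smallest change in Winnie-Prolapse. It ran from 24.6 through 29.8 to 35.8 CPM in C57BL/6, from 24.7 through 40.6 to 50.1 CPM in Winnie and from 20.6 through 43.7 to 59 CPM in Winnie-Prolapse, so that the lowest of all 22 values was in a Winnie-Prolapse library. Its log2 fold changes were 0.42 ± 0.13 (adjusted p = 0.0317) and 0.47 ± 0.17 (adjusted p = 0.0333), and neither call held when C57BL/6 replicate 1 or 6 was left out (0.39 in Winnie, 0.44 in Winnie-Prolapse), nor when 1 of Winnie replicates 1, 2, 3 and 7 or 1 of Winnie-Prolapse replicates 1, 2 and 5 was.

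Fork clamp and nucleotide supply comprised Pcna, the sliding clamp of the DNA polymerases, Rrm1 and Rrm2, the subunits of ribonucleotide reductase, and Tyms, thymidylate synthase. All 4 were upregulated in both groups at an adjusted p under 0.05, but by very different amounts. Rrm2 ran from 4.5 through 8.54 to 16.3 CPM in C57BL/6, from 8.08 through 21.3 to 32.6 CPM in Winnie and from 15.9 through 35.4 to 49.7 CPM in Winnie-Prolapse. Its levels were 2.18-fold higher in Winnie (log2 1.13 ± 0.28 SE, adjusted p = 0.0114 in edgeR) and 3.42-fold higher in Winnie-Prolapse (1.78 ± 0.27, adjusted p = 7.99e-05), the largest estimate among the 36 genes there. The lowest Winnie-Prolapse library lay just under the highest C57BL/6 library. Tyms moved least in Winnie-Prolapse and was the steadiest of the 36 in C57BL/6 (coefficient of variation 6.64%), where it ran from 21.8 through 23.9 to 26.7 CPM. It ran from 25.6 through 31.6 to 36.5 CPM in Winnie and from 25.6 through 30.5 to 41.2 CPM in Winnie-Prolapse, a 1.33-fold difference in both (log2 0.41 ± 0.08, adjusted p = 0.00359, and 0.41 ± 0.11, adjusted p = 0.00556). Pcna, the most abundant of the 4, ran from 35.9 through 44.4 to 50.2 CPM in C57BL/6, from 35.9 through 58.1 to 72 CPM in Winnie and from 47.7 through 72.3 to 78.6 CPM in Winnie-Prolapse. Its log2 fold changes were 0.37 ± 0.12 (adjusted p = 0.0322) and 0.56 ± 0.12 (adjusted p = 0.000865). The call in Winnie did not hold without C57BL/6 replicate 2 or 6 or without Winnie replicate 1, 2 or 7, the estimate then being 0.31 to 0.37. At 1.48-fold in Winnie-Prolapse, it passed the p limit of the stricter rule and not the fold limit.

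Cyclins and Cdk1 comprised 6 genes, and all 6 were upregulated in both groups at an adjusted p under 0.05, with 5 called by the stricter rule in Winnie-Prolapse. Ccna2 encodes cyclin A2, which drives S phase and entry into mitosis, and was both the most abundant and the most changed of the class. It ran from 21.7 through 37.9 to 53.3 CPM in C57BL/6, from 46.7 through 96.8 to 115 CPM in Winnie and from 71.9 through 102 to 163 CPM in Winnie-Prolapse. Every Winnie-Prolapse library was above every C57BL/6 library, and its levels were 2.27-fold higher in Winnie (log2 1.19 ± 0.20 SE, adjusted p = 0.00236 in edgeR) and 2.91-fold higher in Winnie-Prolapse (1.54 ± 0.20, adjusted p = 2.3e-05). Ccne2, a cyclin of the G1/S transition, changed least. It ran from 4.15 through 5.75 to 8.43 CPM, from 5.9 through 8.62 to 12.1 CPM and from 5.25 through 11.7 to 13.6 CPM in the same order, with log2 fold changes of 0.50 ± 0.17 (adjusted p = 0.0373) and 0.81 ± 0.21 (adjusted p = 0.00443). The call in Winnie was lost without any 1 of 9 libraries (C57BL/6 replicates 1, 2, 4, 5 and 6 and Winnie replicates 1, 2, 4 and 7), with estimates of 0.39 to 0.50. The other cyclin E gene, Ccne1, had 0.85 ± 0.25 and 1.30 ± 0.26. The B cyclins, partners of Cdk1 at mitotic entry, were near a doubling in Winnie, at 1.99-fold for Ccnb1, 2.05-fold for Ccnb2 and 1.99-fold for Cdk1 itself, and reached 2.36-fold, 2.16-fold and 2.38-fold in Winnie-Prolapse.

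The transcription factors stood apart from each other. E2f1, an activator of G1/S genes, ran from 4.18 through 4.93 to 8.05 CPM in C57BL/6, from 3.88 through 7.48 to 9.72 CPM in Winnie and from 4.35 through 9.87 to 12.1 CPM in Winnie-Prolapse. Its log2 fold change was 0.38 ± 0.20 SE in Winnie, short of the threshold (adjusted p = 0.161 in edgeR) except without Winnie replicate 5 (0.48) and in males alone (0.81), and 0.68 ± 0.22 in Winnie-Prolapse (adjusted p = 0.016). The call in Winnie-Prolapse was lost in males alone (0.74, adjusted p = 0.109 in edgeR), in females alone (0.64) and with levels set against epithelial markers (0.64). Foxm1, an activator of G2 and mitosis genes, ran from 5.85 through 9.71 to 15.3 CPM in C57BL/6, from 13.3 through 24.1 to 44 CPM in Winnie and from 10.2 through 31.7 to 42.4 CPM in Winnie-Prolapse. It was 2.59-fold higher in Winnie (log2 1.37 ± 0.25, adjusted p = 0.003) and 2.81-fold higher in Winnie-Prolapse (1.49 ± 0.26, adjusted p = 0.000269).

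Mitotic kinases, the spindle checkpoint and the chromosomal passenger complex comprised 7 genes, all upregulated in both groups at an adjusted p under 0.05, with median log2 fold changes of 1.07 and 1.20 and 5 called by the stricter rule in Winnie-Prolapse. Plk1, a kinase of mitotic entry and progression, ran from 6.71 through 12.9 to 17.1 CPM in C57BL/6, from 13.7 through 31.9 to 62.5 CPM in Winnie and from 19.2 through 47.6 to 65.1 CPM in Winnie-Prolapse. It was 2.59-fold higher in Winnie (log2 1.37 ± 0.28 SE, adjusted p = 0.00483 in edgeR) and 3.24-fold higher in Winnie-Prolapse (1.70 ± 0.25, adjusted p = 6.17e-05), with no overlap between Winnie-Prolapse and C57BL/6 libraries. Birc5 encodes survivin, of the passenger complex with Aurora B, and was the most abundant of the class. It ran from 10.2 through 19.5 to 27.8 CPM, from 19.9 through 31.5 to 46.8 CPM and from 28.7 through 38.6 to 58.7 CPM in the same order, with log2 fold changes of 0.87 ± 0.21 (adjusted p = 0.0104) and 1.20 ± 0.21 (adjusted p = 0.000271). Bub1b, which encodes the checkpoint protein BubR1, changed least in Winnie-Prolapse, at 2-fold in Winnie (adjusted p = 0.0062) and a log2 fold change of 1.07 ± 0.24 in Winnie-Prolapse (adjusted p = 0.00158), and ran from 6.2 through 11.1 to 14 CPM, from 12.4 through 19.4 to 32.2 CPM and from 9.95 through 22.2 to 35.5 CPM. The checkpoint kinases Bub1 and Ttk were 2.49-fold and 2.1-fold higher in Winnie and 2.78-fold and 2.11-fold higher in Winnie-Prolapse. The Aurora kinases Aurka and Aurkb were 2.08-fold and 2.25-fold higher in Winnie and 2.56-fold and 2.15-fold higher in Winnie-Prolapse.

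Of the factors of the anaphase-promoting complex, the ubiquitin ligase that ends mitosis, Ube2c, its ubiquitin-conjugating enzyme, ran from 12.5 through 21.5 to 34.9 CPM in C57BL/6, from 25.6 through 48.1 to 69.6 CPM in Winnie and from 44.7 through 54.8 to 85 CPM in Winnie-Prolapse. Its levels in Winnie-Prolapse did not overlap those in C57BL/6, and its log2 fold change was 1.12 ± 0.22 SE in Winnie (adjusted p = 0.00471 in edgeR) and 1.45 ± 0.21 in Winnie-Prolapse (adjusted p = 4.51e-05). The activator Cdc20 ran from 7.79 through 13.5 to 19.1 CPM, from 13.4 through 26.9 to 45.5 CPM and from 14.1 through 34.7 to 44.9 CPM, with log2 fold changes of 0.97 ± 0.24 (adjusted p = 0.0111) and 1.13 ± 0.24 (adjusted p = 0.000996).

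Spindle, centromere and chromosome proteins comprised 8 genes, all upregulated in both groups at an adjusted p under 0.05, with medians of 1.10 and 1.25 and 4 called by the stricter rule in Winnie-Prolapse (Kif11, Tpx2, Prc1 and Top2a). Mki67 ran from 46.6 through 88.1 to 107 CPM in C57BL/6, from 108 through 163 to 318 CPM in Winnie and from 75 through 195 to 282 CPM in Winnie-Prolapse. All 7 Winnie libraries were above all 8 C57BL/6 libraries, the lowest Winnie value lying just above the highest control, while the lowest Winnie-Prolapse library was inside the control range. The log2 fold change was 1.22 ± 0.25 SE in Winnie (adjusted p = 0.00521 in edgeR) and 1.24 ± 0.27 in Winnie-Prolapse (adjusted p = 0.00117). Top2a, the topoisomerase that untangles sister chromatids, had the largest change of the class in Winnie-Prolapse. It ran from 25.7 through 50.3 to 78.8 CPM, from 60.2 through 115 to 167 CPM and from 59.8 through 132 to 221 CPM, with log2 fold changes of 1.15 ± 0.23 (adjusted p = 0.00467) and 1.42 ± 0.26 (adjusted p = 0.000339). Cenpf, a kinetochore protein, had the smallest in both groups, at 0.83 ± 0.21 (adjusted p = 0.0124) and 0.82 ± 0.23 (adjusted p = 0.00674), and ran from 9.57 through 17.4 to 20.6 CPM, from 18.1 through 26.4 to 43.2 CPM and from 13.5 through 32.9 to 39.7 CPM. Kif11, the motor that pushes the spindle poles apart, Tpx2, the activator of Aurora A, and Prc1, a crosslinker of midzone microtubules, were between 2.12-fold and 2.25-fold higher in Winnie and between 2.4-fold and 2.61-fold higher in Winnie-Prolapse. Nusap1, a spindle microtubule protein, was 2.02-fold and 1.9-fold higher, and Cenpa, the centromeric histone H3 variant, 1.86-fold and 1.91-fold higher.

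**Figure D2:**
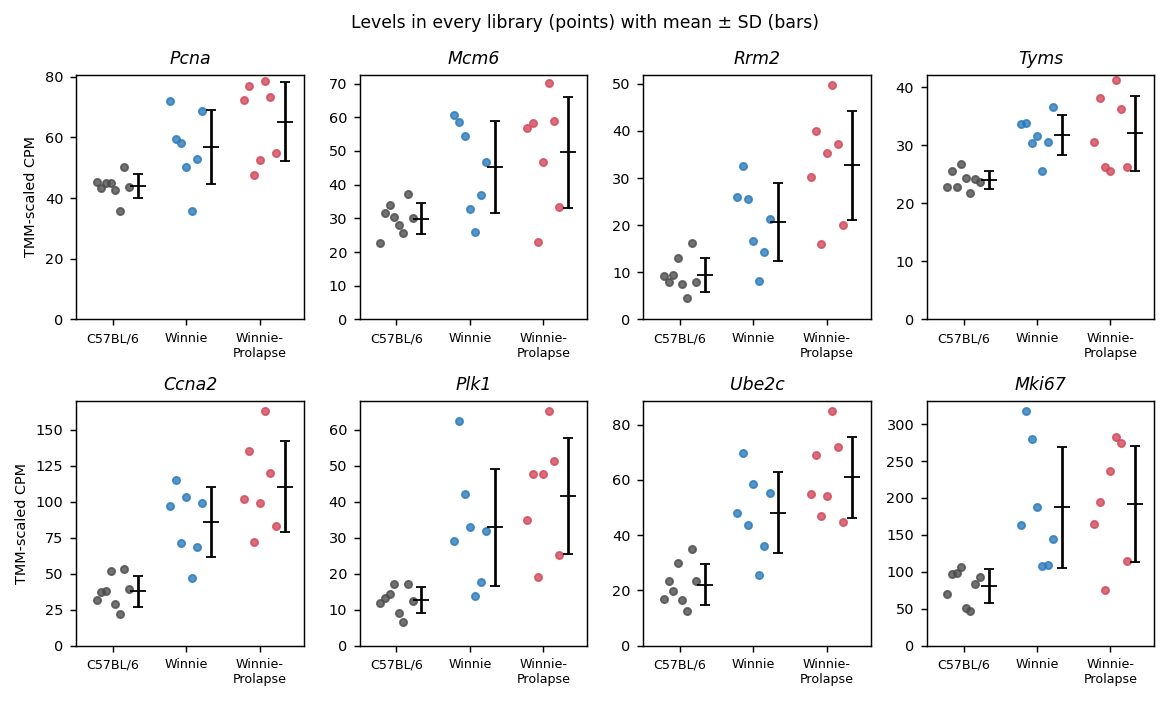
Levels in TMM-scaled CPM (y axis, from 0) of 8 of the genes in each library (points), with the group mean ± SD as a bar, for 8 C57BL/6, 7 Winnie and 7 Winnie-Prolapse libraries. Tyms and Pcna moved by small steps (means of 24 and 43.9 CPM in C57BL/6), while Rrm2, Ccna2 and Plk1 separated further; at least 1 library of each Winnie group sits near the controls for most genes.

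For most of the genes the libraries of the groups overlapped. Every Winnie library was above every C57BL/6 library for 3 of the 36 genes (Bub1, Mki67 and Ttk), where 0.711% of tested genes had that pattern. Every Winnie-Prolapse library was above every C57BL/6 library for 8 (Aurka, Birc5, Ccna2, Ccnb1, Ccnb2, Cdk1, Plk1 and Ube2c), where 9.16% of tested genes had it. No gene of the 36 had every Winnie-Prolapse library above every Winnie library, a pattern of 0.575% of tested genes.

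The overlap came from the same few libraries for gene after gene. In Winnie replicate 5, a female, only 3 of the 36 genes were above every C57BL/6 library, and this library was the lowest of its group for 30 of the 36. In Winnie replicate 6, also female, 16 genes were above the control range (5 of G1/S and S phase and 11 of G2 and mitosis). In Winnie-Prolapse replicate 3, a male, 8 genes were, all of G2 and mitosis, and it was the lowest of its group for 32 of 36. In Winnie-Prolapse replicate 7, a female, 23 were. In the remaining 10 libraries of the Winnie groups between 27 and 36 genes were above every control. The highest values sat in single libraries too, since Winnie replicate 2 was highest of its group for 25 genes and Winnie-Prolapse replicate 5 for 34. Among the controls, C57BL/6 replicate 6 was lowest for 27 genes and C57BL/6 replicate 7 highest for 18, of which 11 were of G1/S and S phase. This last library had the highest smooth muscle sum of all (14523 CPM, against 7592 to 10410 CPM in the other controls) and the lowest macrophage and monocyte sum (77.2 CPM). It was also lowest in Ly6g, at 3.67 CPM against 224 to 338 CPM in the other controls, a gene that made up nearly all of the neutrophil sum in C57BL/6, where the other 7 markers added 0.455 to 3.22 CPM. The part of these differences was not tested. Without this library, a choice made after the data had been seen, the genes with every library above every control numbered 3 in Winnie (1.22% of tested genes) and 11 in Winnie-Prolapse (11.1%), with Mcm3, Pcna and Rrm2 added to the 8. Winnie replicates 5 and 6 then had 3 and 23 genes above the controls, and Winnie-Prolapse replicates 3 and 7 had 12 and 24.

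Summed over the 36 genes, levels ran from 456 to 852 CPM in C57BL/6 (683 ± 136, SD, n = 8), from 753 to 1872 CPM in Winnie (1305 ± 372, n = 7) and from 793 to 2189 CPM in Winnie-Prolapse (1500 ± 475, n = 7). The 14 G1/S and S phase genes summed to 262 ± 29.2, 393 ± 104 and 466 ± 134 CPM, and the 22 genes of G2 and mitosis to 421 ± 114, 911 ± 288 and 1034 ± 346 CPM. In controls the ratio of the second sum to the first was 1.59 ± 0.352, while Winnie had 2.34 ± 0.485 and Winnie-Prolapse 2.21 ± 0.22, with ranges of 1.04 to 2.2, 1.71 to 3.1 and 1.81 to 2.43 that overlapped, and was not tested, being a score over chosen genes. The highest ratio, 3.1, was in Winnie replicate 4, where all 22 G2 and mitosis genes but only 5 of 14 G1/S and S phase genes were above the control range.

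**Figure D3:**
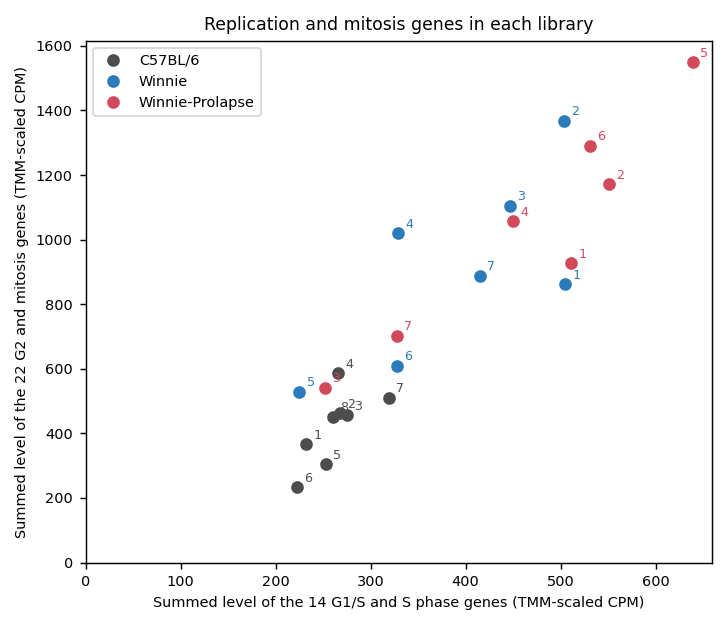
Summed level of the 14 G1/S and S phase genes (x axis, TMM-scaled CPM) against that of the 22 G2 and mitosis genes (y axis, TMM-scaled CPM) in each library, with replicate numbers. Controls sit at 223 to 319 on the x axis, and Winnie replicate 5 and Winnie-Prolapse replicate 3 lie beside them at 225 and 252, while Winnie replicate 4 (329 and 1020) lies above the other libraries of its x value.

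**Figure D4:**
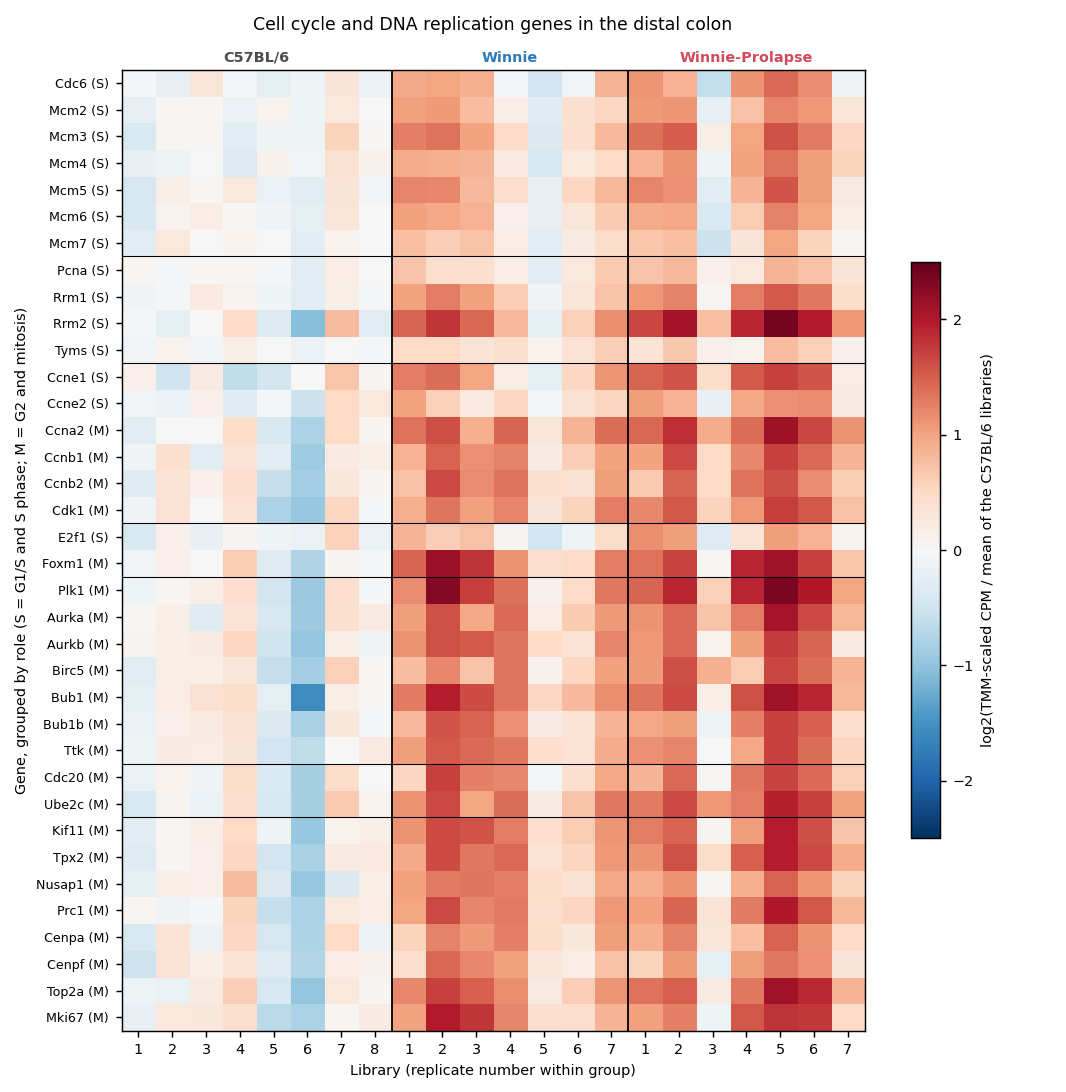
Each cell is the log2 ratio of a gene's TMM-scaled CPM to its mean in the C57BL/6 libraries (colour, blue below and red above the control mean), for 36 genes (rows, grouped by role) in 22 libraries (columns, by group and replicate). Winnie replicates 5 and 6 and Winnie-Prolapse replicates 3 and 7 are paler than the rest of their groups, with 3, 16, 8 and 23 genes above every control.

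Values of other cell types were set beside these libraries, and their part was not tested. Winnie-Prolapse replicate 7, low in cell cycle genes, had the highest sum of T cell markers (76.4 CPM, against 7.2 to 30.1 CPM in C57BL/6) and the highest of squamous markers (3843 CPM). Winnie-Prolapse replicate 3 had the highest sum of plasma cell markers (2407 CPM) and of epithelial markers (23763 CPM) of its group, with squamous markers at 132 CPM. Winnie replicate 5 had the lowest sums of plasma cell (686 CPM), macrophage and monocyte (112 CPM) and epithelial markers (13638 CPM) of its group. Markers of B cells and of the germinal centre, where B cells divide, summed to between 11.1 and 260 CPM in C57BL/6, 21.5 and 112 CPM in Winnie and 35.2 and 183 CPM in Winnie-Prolapse, and 2 of 10 tested rose in Winnie (13.8% of all tested genes did) and 3 of 10 in Winnie-Prolapse (26.5%). Of 8 crypt stem and progenitor genes, none rose in Winnie and 1 rose in Winnie-Prolapse (Slc12a2, log2 0.63), while Ascl2, a stem cell transcription factor, fell by 0.65 in Winnie (adjusted p = 0.0265 in edgeR) and by 1.5 in Winnie-Prolapse (adjusted p = 6.21e-05). Axin2, a Wnt target, had 0.16 in Winnie and fell by 0.43 in Winnie-Prolapse (adjusted p = 0.0174). Median log2 fold changes of that list were 0.14 and -0.32.

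With libraries restricted to those with the squamous keratin Krt5 under 10 CPM, a choice made after the data had been seen that dropped Winnie replicate 2 and 5 Winnie-Prolapse libraries, 29 of the 36 genes were higher in Winnie at an adjusted p under 0.05 (9.66% of tested genes), with a median of 0.89. In Winnie-Prolapse, where this left replicates 1 and 3 alone, 10 of 36 were higher (11.9% of tested genes) with a median of 0.67, and none was called by the stricter rule. With levels set against the sum of epithelial markers instead of TMM, which moved the median of all genes to -0.29 in Winnie and -0.11 in Winnie-Prolapse, 22 of the 36 were higher in Winnie at an adjusted p under 0.05 (4.24% of tested genes) and 33 in Winnie-Prolapse (16.4%), with medians of 0.71 and 1.09. The 12 genes that lost the call in Winnie, with log2 fold changes of 0.07 to 0.58, were Mcm2 to Mcm7, Pcna, Rrm1, Tyms, Ccne1 and Ccne2, all of G1/S and S phase, and Cenpf of mitosis, so that Rrm2 was the 1 gene of G1/S and S phase still upregulated there. Pcna had 0.07, Tyms 0.10, Mcm7 0.13 and Mcm6 0.31. In Winnie-Prolapse Mcm7 (0.42), Tyms (0.33) and E2f1 (0.64) lost it, and the 5 genes called by the stricter rule were Rrm2, Ccna2, Plk1, Aurka and Ube2c (6.23% of tested genes passed).

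Sex was balanced closely enough to be examined. Across all groups no gene of the 36 differed between females and males at an adjusted p under 0.05, with 0 at an unadjusted p under 0.05 in edgeR and 0.0788% of all tested genes passing. The log2 differences of females minus males had a median of -0.15, and 2 of the 36 were positive. The difference of the Winnie effect between females and males passed for none of the 36 (unadjusted p under 0.05 for 3; 0% of tested genes passed), and so it was for the Winnie-Prolapse effect (1 unadjusted; 0% of tested genes). For Winnie-Prolapse against Winnie, all 36 differences between the sexes were positive, with a median of 0.83, and 12 had an unadjusted p under 0.05, but none passed after adjustment (smallest adjusted p = 0.228 in edgeR; 0.0113% of tested genes passed). For Winnie against C57BL/6, Mcm3 had 1.34 in males and 0.27 in females, Mcm6 0.97 and 0.23, and E2f1 0.81 and -0.05, while Ccna2 had 1.25 and 1.14 and Birc5 0.83 and 0.91. The phase classes were mixed in this: Foxm1 had 1.64 and 1.10, Plk1 1.66 and 1.07, and Tyms, of S phase, 0.42 and 0.40. These genes are examples, and the medians of all 36 were 1.11 in males and 0.93 in females. In males alone the 36 genes had a median of -0.18 for Winnie-Prolapse against Winnie, and in females alone of 0.60. Of the libraries low in these genes, Winnie replicates 5 and 6 and Winnie-Prolapse replicate 7 came from females and Winnie-Prolapse replicate 3 from a male.

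Levels between genes were compared per kilobase of exon, with every annotated exon of a gene counted. The order of the genes below therefore rests on the annotation as well as on RNA. In C57BL/6, Pcna was highest at 18.3 ± 1.66 CPM per kb (SD, n = 8), followed by Ccnb2 (10.7 ± 3.15), Ccna2 (9.25 ± 2.65), Ube2c (8.51 ± 2.86) and Mki67 (8.04 ± 2.25), whose SDs overlap. Cdc6 was lowest at 0.879 ± 0.137 CPM per kb, next to Cenpf (1.03 ± 0.275), Ttk (1.06 ± 0.235) and Bub1 (1.11 ± 0.366), which did not differ beyond their SDs. Raw counts of the 36 genes were never under 42 in a library (Bub1 in C57BL/6 replicate 6), so none was near the detection limit.

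The pathway around the 36 genes was read from lists of further cell cycle genes. Of 39 other replication genes, 20 were upregulated in Winnie and 25 in Winnie-Prolapse at an adjusted p under 0.05 and none was downregulated (13.8% of all tested genes were higher and 11.9% lower in Winnie, and 26.5% and 26% in Winnie-Prolapse), with median log2 fold changes of 0.50 and 0.59. Dbf4, the activator of the Cdc7 kinase that fires origins, changed most in Winnie-Prolapse (1.31 ± 0.18 SE, adjusted p = 3.66e-05 in edgeR), and Dnmt1, the maintenance DNA methyltransferase and the most abundant, had 0.58 ± 0.18 in Winnie and 0.59 ± 0.19 in Winnie-Prolapse. Rfc2, a clamp loader subunit, had the lowest estimates of the list in Winnie-Prolapse (-0.03 ± 0.10). Of 59 other mitosis genes, 53 were upregulated in Winnie and 54 in Winnie-Prolapse, against the same shares of all genes, none was downregulated, and 29 were called by the stricter rule in Winnie-Prolapse, with medians of 0.99 and 1.15. Gtse1 had the largest estimate in Winnie-Prolapse (1.59 ± 0.27, adjusted p = 0.000198). Pttg1, which encodes the separase inhibitor securin, had 0.04 ± 0.09 in Winnie and -0.32 ± 0.16 in Winnie-Prolapse. Hjurp, the chaperone of Cenpa, had 0.20 ± 0.14 and -0.09 ± 0.14, and neither gene passed the test. The mean of Hjurp over all libraries was 171 CPM, against 22.3 CPM for Cenpa, and the source of its counts was not tested.

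G1 regulators did not move as a block. Of 17 genes of G1 control (D cyclins, Cdk2, Cdk4, Cdk6, E2F factors, Cdc25a, Skp2, Myc and Mycn), 6 rose and 2 fell in Winnie and 10 rose and 3 fell in Winnie-Prolapse at an adjusted p under 0.05, with medians of 0.30 and 0.43. Among all tested genes, 13.8% were higher and 11.9% lower in Winnie, and 26.5% and 26% in Winnie-Prolapse. Those that rose in Winnie were Cdk4, Skp2, Myc, E2f4, E2f7 (1.35 ± 0.31 SE) and E2f8 (1.26 ± 0.26). Those that fell there were Cdk6 and Mycn. Cyclin D1 (Ccnd1), the mitogen-responsive G1 cyclin, had 0.26 ± 0.18 SE in Winnie (adjusted p = 0.276 in edgeR) and rose by 1.12 ± 0.22 in Winnie-Prolapse (adjusted p = 0.000519). It was also 0.87 ± 0.23 higher in Winnie-Prolapse than in Winnie (adjusted p = 0.0332). Ccnd2, the most abundant, had 0.32 ± 0.15 (adjusted p = 0.137) and rose by 0.64 ± 0.15 (adjusted p = 0.0023). E2f2, an activator E2F, had 0.92 ± 0.46 in Winnie (adjusted p = 0.144) and rose by 1.99 ± 0.40 in Winnie-Prolapse (adjusted p = 0.000777). Between Winnie-Prolapse and Winnie, E2f2 had 1.09 ± 0.30 (adjusted p = 0.041) and E2f3 -0.46 ± 0.13 (adjusted p = 0.0402). Cdk6, a cyclin D kinase, fell by 0.49 in Winnie (SE 0.14, adjusted p = 0.02) and by 0.70 in Winnie-Prolapse (SE 0.12, adjusted p = 0.000241). Of 19 tested inhibitors and exit genes, 3 rose and 1 fell in Winnie, and 2 rose and 6 fell in Winnie-Prolapse, with medians of 0.11 and 0.03, where 13.8% of all tested genes were higher and 11.9% lower in Winnie, and 26.5% higher and 26% lower in Winnie-Prolapse. Cdkn2b, which encodes the Cdk4 and Cdk6 inhibitor p15, fell by 0.53 (SE 0.17, adjusted p = 0.0354) and by 1.24 (SE 0.24, adjusted p = 0.000587). Cdkn1a, which encodes p21 and was the most abundant of the list, had 0.36 ± 0.17 (adjusted p = 0.12) and 0.14 ± 0.22 (adjusted p = 0.625), and Btg1, an antiproliferative gene, had -0.27 ± 0.17 (adjusted p = 0.254) and fell by 0.66 (SE 0.17, adjusted p = 0.00372).

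**Figure D5:**
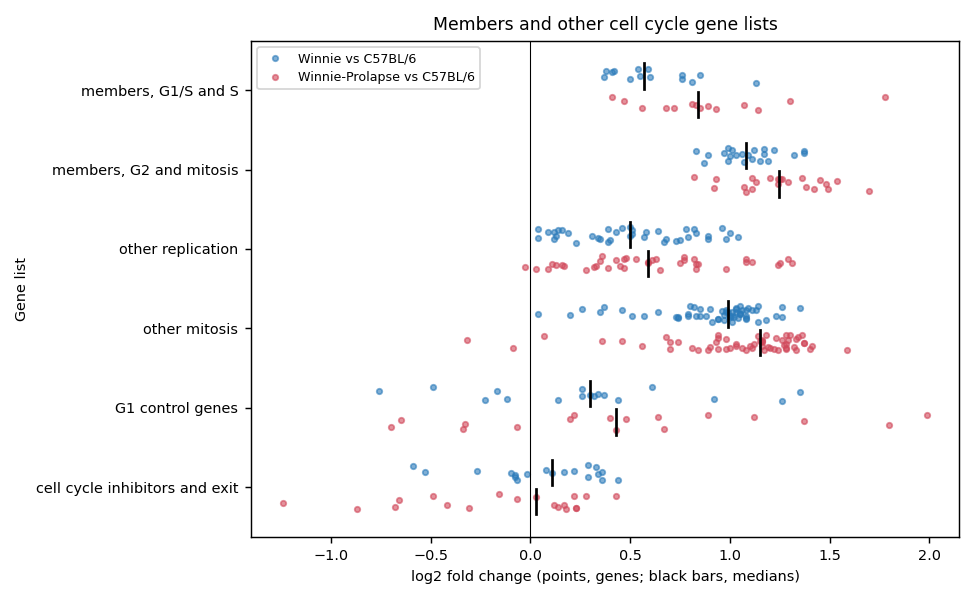
log2 fold change (x axis) of the 36 genes by phase class and of 4 lists of further cell cycle genes (rows) in Winnie (blue) and Winnie-Prolapse (red) against C57BL/6, with points as genes and black bars as medians. The mitosis lists centre near 1 (medians of 1.08 and 1.24 for the 22 genes, 0.99 and 1.15 for the 59 others), the replication lists lie lower, and the inhibitors centre near 0 (0.11 and 0.03).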

How the data were processed

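The authors sequenced poly(A)-selected RNA of distal colon and, per the labels, made stranded libraries. The submitters' processing notes name STAR, featureCounts and GRCm38. The deposited table holds raw counts per gene from featureCounts, with no normalization. The annotation release, the strand setting and the handling of reads that fit several genes are not given in the sources used here. With library totals of 24817527 to 36344372 counts, a floor of 3 counts in a library lay between 0.0825 and 0.121 CPM, under every level printed. No libraries were copies of each other, with a chi-square over degrees of freedom of at least 28.83 for each pair within a group.

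Genes were filtered with filterByExpr, scaled by TMM and tested in edgeR 4.0.16 (R 4.3.3) with the quasi-likelihood test, each comparison fitted on its own 2 groups, with p-values adjusted by Benjamini-Hochberg over all tested genes and not over the lists alone. SE is the log2 fold change over the square root of F. A gene was called by the rule of the study at an adjusted p under 0.001 and at least 1.5-fold. Alternatives were library totals, TMM without milk protein genes, scaling to epithelial markers, DESeq2 1.42.0, limma-voom 3.58.1, other edgeR tests, other filters, sex as a covariate, each sex alone, 1 fit of all groups and leaving out each library. The scripts were tested on simulated data. The 36 genes, the lists and the rules were chosen with earlier results of these data known. Of all list genes, 258 matched by symbol and 4 by the identifier of a current symbol. Values by library were given for the most abundant gene and those with the largest and smallest Winnie-Prolapse fold change in each role class. Replicate numbers only name mice. The labels give 7 Winnie colon libraries, 1 more than the methods of the study, and all 7 were used since nothing says which was left out. Of the other lists, the 3 most abundant genes and those with the largest and smallest fold change could be named. Ascl2, Axin2, Slc12a2, E2f3, Mycn and the G1 control genes that rose in Winnie were named after their values were seen. Lengths per kilobase are union exon lengths of GENCODE M21.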

Additional observations from a re-analysis of the deposited data

Results flagged for a closer look

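Of 54 groups of values (18 genes in 3 groups) examined for a sample far from the rest, 2 stood out, and chance flags about 1 in 20. Both were the highest C57BL/6 value and both in C57BL/6 replicate 7. For Mcm3 the gap between replicate 7 (22.8 CPM) and the next library took 0.609 of the range of the group. For E2f1 the gap between replicate 7 (8.05 CPM) and the next took 0.544. Without this library, E2f1 had a log2 fold change of 0.48 in Winnie against C57BL/6.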

How the results depend on the processing

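Counts and medians of the 36 genes were recomputed under each alternative, and the cause of a change was not tested. In Winnie against C57BL/6, the number called by the stricter rule (0) became 20 with DESeq2 and 20 with edgeR's likelihood ratio test. It became 1 with all 3 groups in one fit (174 of 17769 tested genes passed upwards) and 2 in males alone (112 of 17574). With an adjusted p under 0.05 and at least 1.5-fold it became 29 (1282 of 17289 higher). It ranged from 0 to 15 when single libraries were left out. The number at an adjusted p under 0.05 (34) became 22 with epithelial scaling and 0 in females alone, where 1 gene of all passed and the median was 0.93. It was 36 in males alone, and 29 to 36 when single libraries were left out. In Winnie-Prolapse against C57BL/6, the called number (21) became 33 with an adjusted p under 0.05 and at least 1.5-fold (2902 of 17397 tested genes higher). It became 5 with epithelial scaling, 0 in males alone, 0 in females alone and 0 with Krt5 under 10 CPM (Winnie-Prolapse replicates 1 and 3 alone). It ranged from 14 to 32 without single libraries. The number at an adjusted p under 0.05 (36) became 22 in males alone (15.3% of tested genes were higher). With Krt5 under 10 CPM it became 10 (11.9% of tested genes), and the median became 0.67. In Winnie-Prolapse against Winnie, the median (0.23) reversed to -0.18 in males alone. It also reversed, to -0.13, with Krt5 under 10 CPM (Winnie-Prolapse replicates 1 and 3 alone), and was between 0.13 and 0.33 without single libraries. Mki67 (0.03) reversed to -0.60 in males alone, to -0.48 with Krt5 under 10 CPM and ranged from -0.09 to 0.21 without single libraries, and E2f1 in Winnie against C57BL/6 reversed to -0.05 in females alone. The other medians against C57BL/6 kept their sign under the alternatives run. Over 18 named genes, 54 of the alternative values in Winnie and 32 in Winnie-Prolapse lost the adjusted p of 0.05 against C57BL/6, and 456 and 508 kept their call. Scaling moved the balance of all genes: at an adjusted p under 0.05 in Winnie, 2387 were higher and 2054 lower with TMM, 1540 and 2786 with library totals, and 733 and 5156 with epithelial scaling; in Winnie-Prolapse, 4616 and 4519 became 2849 and 4747 with epithelial scaling. No paired analysis was possible because replicate numbers were given in accession order and pair no mice.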
